A study of Homo sapiens with 8 samples.

Results

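The genes described here encode 7 factors of nonsense-mediated decay, the pathway that destroys mRNA on which translation stops too early. They were UPF1, UPF2, UPF3A, UPF3B, SMG1, SMG5 and SMG6, found by symbol among the 21077 genes of the deposited table, and all 7 passed the filter on low values that left 15570 genes. The cells were Hs578T, a widely used human line of breast cancer that is negative for the estrogen receptor and mesenchymal in character. Cells were kept for 48 hours at 25 mM glucose (high glucose, 4 libraries) or at 5 mM glucose (low glucose, 4 libraries), in both cases, by the methods of the study, without serum and after conditioning in low glucose. The comparison asks how a hyperglycemia-like condition changed the RNA of these factors. It covers 1 cell line, and no osmotic control is among the 8 libraries. The labels do not say whether replicates were grown on separate occasions, so the p values reflect only how far these libraries scatter, which may be technical.

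In nonsense-mediated decay, the RNA helicase UPF1 joins a terminating ribosome together with the kinase SMG1 and the release factors. An exon junction complex left downstream of the stop codon is bridged to UPF1 through UPF3B or its paralog UPF3A and through UPF2, and SMG1 then phosphorylates UPF1. Phosphorylated UPF1 recruits SMG6, an endonuclease that cuts the RNA, and SMG5, which helps to bring in deadenylation and decapping. In human cells the mRNA of several of these factors, among them UPF2, UPF3B, SMG1, SMG5 and SMG6, is itself a known substrate of the pathway. Cells use the pathway both to clear faulty transcripts and to limit the level of some normal mRNA, including mRNA of stress responses.

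High-glucose libraries had an estimated 10244900 to 11956677 counts and low-glucose libraries 10323776 to 11126112, so that 1 count is worth 0.0867 to 0.118 of the deposited unit. That unit was taken as CPM, the authors' counts relative to a library size scaled with TMM factors. VIM and FN1, mesenchymal markers of this line, were at 3567 to 3909 and 24425 to 25421 CPM in high glucose, against 8269 to 8581 and 41004 to 44820 CPM in low glucose. ESR1, the estrogen receptor gene, reached at most 0.270 CPM in high glucose and 0.225 CPM in low glucose. Of the markers for other cells, EPCAM and CDH5 were at 0 in all 8 libraries and PGR, CDH1 and ALB stayed under 1 CPM. PTPRC, a leukocyte gene, was at 0.382 to 1.08 CPM in high glucose and 0 to 0.221 CPM in low glucose. PECAM1, an endothelial gene, was at 4.91 to 6.21 CPM in high and 1.63 to 2.44 CPM in low glucose, and CD68, a lysosomal gene used as a leukocyte marker, at 91.3 to 96.3 CPM in high and 180 to 188 CPM in low glucose. The part of these genes in the results was not tested.

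At an adjusted p under 0.05 (limma with Benjamini-Hochberg adjustment over all genes), 6 of the 7 factors were called higher and 1, UPF3A, lower in high glucose. The same test called 72.9% of all genes tested, 35.7% higher and 37.2% lower, so a call by itself does not set a factor apart. The groups did not overlap for 6 of the 7 factors, beside 66.7% of all genes, and they overlapped for SMG1. The median log2 fold change of the 7 was 0.37, against 0.00 over all genes. Of the genes tested, 5.02% had a larger log2 fold change than UPF3B, 23.8% than SMG5 and 25.3% than UPF1. The shares were 30.1% for UPF2, 36.4% for SMG6 and 43.7% for SMG1, and 27.9% had a smaller one than UPF3A. Fold changes are differences of mean log2(CPM + 1), high minus low glucose, which understates the change of low genes. In bulk RNA, a change in the share of cells with a transcript and a change in its amount per cell cannot be told apart.

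**Figure D1:**
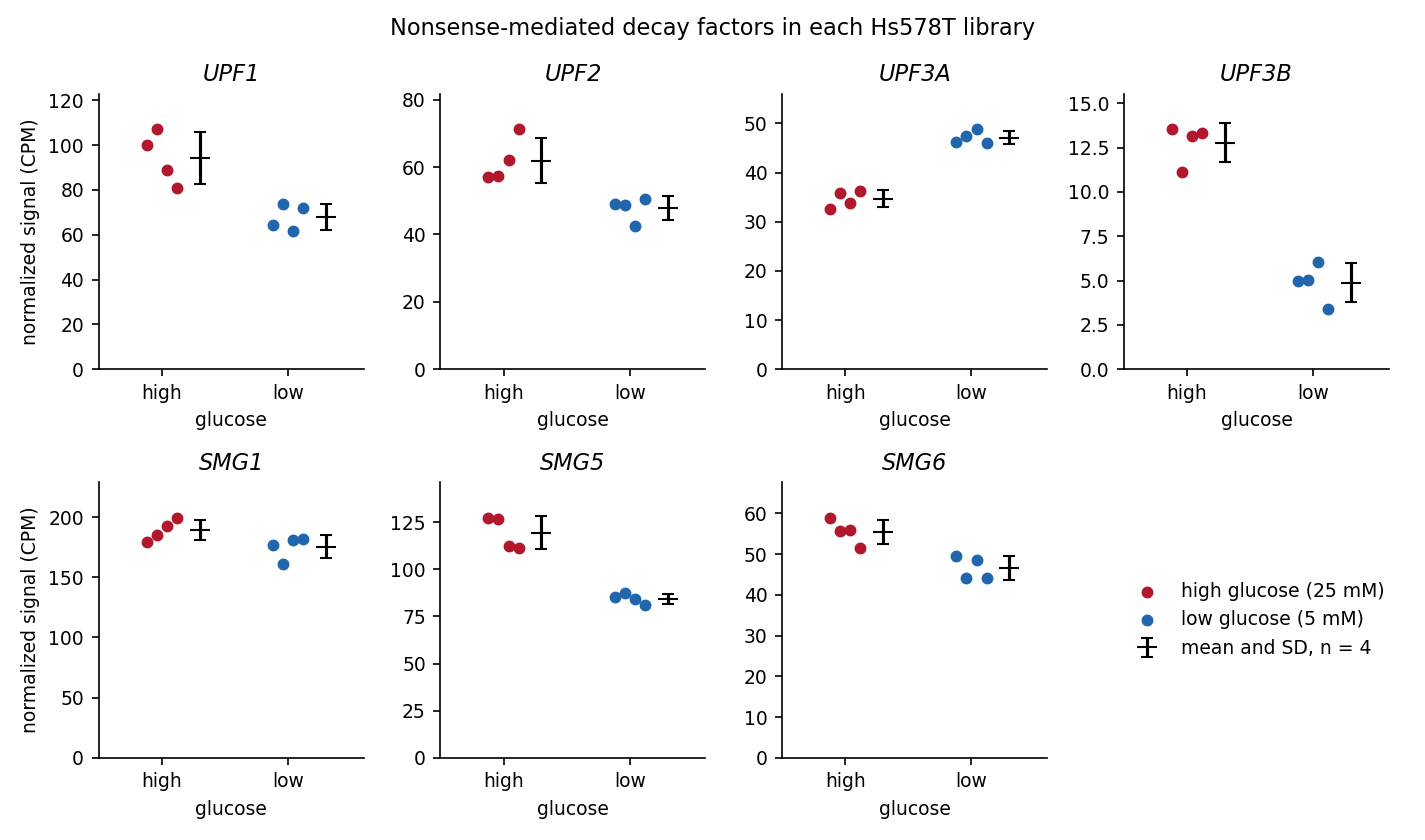
Normalized signal of the 7 decay factors in CPM (vertical axes start at 0 and differ between panels), with 1 point per library, high glucose (red) left of low glucose (blue), and black bars for the mean and SD of 4 libraries. UPF3A is the panel in which the high-glucose points lie below the low-glucose points, and SMG1 is the panel in which the groups overlap.

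UPF3A and UPF3B, the paralogs that contact the exon junction complex, moved in opposite directions. UPF3B had 13.5, 11.1, 13.2 and 13.3 CPM in the high-glucose libraries and 4.98, 5.06, 6.07 and 3.42 CPM in the low-glucose libraries. All 4 high-glucose values lie well above the low-glucose ones, and the lowest of them belongs to replicate 2. The means were 12.8 ± 1.12 and 4.88 ± 1.09 CPM (SD, n = 4), a ratio of means of 2.62, and UPF3B rose by 1.25 ± 0.139 (SE) on the log2 scale (adjusted p = 8.24e-07). Only 5.02% of the genes tested had a larger log2 fold change. The estimates rest on 111 to 156 counts per library in high glucose and 29 to 56 in low glucose, the fewest behind any of the 7 factors.

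UPF3A had 32.6, 35.9, 33.9 and 36.3 CPM in the high-glucose libraries, against 46.3, 47.4, 48.8 and 46.0 CPM in the low-glucose libraries. Each group is narrow and the gap between them is wider than either. The means were 34.7 ± 1.74 and 47.1 ± 1.27 CPM (SD, n = 4), and UPF3A fell by 0.43 on the log2 scale (SE 0.0563, adjusted p = 4.50e-06). UPF3A has pseudogene copies: 33.1% of the 75-base windows of its longest coding transcript also occur in transcripts of other genes, most of them in UPF3AP2 and UPF3AP1. The row of UPF3AP2 held at most 1.07 estimated counts in any library and was at 0 in 7 of 8. No row was found under the symbol UPF3AP1. Estimated counts of UPF3A were whole in 5 of 8 libraries, and whether it shared reads with its copies was not tested.

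The level of UPF3B relative to UPF3A within a library was compared as a log2 ratio. It was -1.210, -1.605, -1.300 and -1.380 in high glucose and -2.982, -2.999, -2.816 and -3.410 in low glucose. These ratios of signal are not per length, so they do not say which protein or mRNA is more abundant, and only their change between groups is read. The ratio was higher in all 4 high-glucose libraries, by 1.68 on the log2 scale (2-sided exact permutation test over 70 arrangements, p = 0.0286, the smallest this design allows, and 0.0429 after Benjamini-Hochberg adjustment over the 3 ratios compared).

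The 250 bases upstream of the annotated start of these paralogs are shown because the pair moved apart. They come from RefSeq on GRCh38.p14, read 5′ to 3′ on the strand of the gene, for UPF3B at chrX:119852964-119853213 on the minus strand and for UPF3A at chr13:114281351-114281600 on the plus strand. Capitals mark CCAAT, the box bound by NF-Y, in UPF3B and CCGGAAG, an ETS family motif, in UPF3A, on either strand.
UPF3B: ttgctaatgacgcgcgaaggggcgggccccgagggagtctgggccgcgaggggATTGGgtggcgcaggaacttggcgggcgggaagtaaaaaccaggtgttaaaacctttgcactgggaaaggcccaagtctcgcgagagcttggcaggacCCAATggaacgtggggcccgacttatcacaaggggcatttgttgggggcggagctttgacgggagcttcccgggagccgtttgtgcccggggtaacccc
UPF3A: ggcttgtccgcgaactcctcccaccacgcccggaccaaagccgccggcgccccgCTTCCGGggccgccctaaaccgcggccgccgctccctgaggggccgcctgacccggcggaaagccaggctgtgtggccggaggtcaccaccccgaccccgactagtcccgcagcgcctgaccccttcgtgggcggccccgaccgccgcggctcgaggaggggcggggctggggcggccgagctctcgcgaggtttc
The UPF3B window holds CCAAT at 2 places, once on each strand, and the UPF3A window holds CCGGAAG at 1 place and no NF-Y box. The letters CCAAT occur in the windows of 4 of the 7 factors (UPF1, UPF2, UPF3B and SMG5) and in 32.0% of all 35116 RefSeq windows of this length. CCGGAAG occurs for 1 of the 7 and in 8.52% of all windows, and CACGTG, the E-box, for UPF2 alone and in 6.34%. TGACGTCA, the cAMP response element, and CGCATGCG, an NRF1 motif, occur in none of the 7 and in 1.65% and 1.73% of all windows. None of the 5 motifs contains another. A match is a run of letters and not evidence of a bound factor.

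UPF1 and UPF2, the helicase and the adaptor that links it to UPF3, were both higher in high glucose. UPF1 had 99.8, 107, 88.7 and 81.0 CPM in high glucose and 64.2, 73.9, 61.5 and 71.9 CPM in low glucose. High-glucose replicate 4 comes closest to the low-glucose range, without reaching it. The means were 94.1 ± 11.5 and 67.9 ± 5.94 CPM (SD, n = 4), and UPF1 rose by 0.46 ± 0.0795 (SE) on the log2 scale (adjusted p = 8.53e-05).

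UPF2 had 56.9, 57.3, 62.2 and 71.1 CPM in high glucose and 49.0, 48.8, 42.6 and 50.6 CPM in low glucose. The high-glucose library that was lowest for UPF1, replicate 4, was the highest for UPF2. High-glucose replicates 1 and 2 were above replicates 3 and 4 for UPF1 and below them for UPF2. The means were 61.9 ± 6.61 and 47.8 ± 3.53 CPM (SD, n = 4), and UPF2 rose by 0.37 ± 0.0735 (SE, adjusted p = 3.60e-04). The within-library log2 ratio of UPF2 over UPF1 spread from -0.89 to -0.18 in high glucose and from -0.59 to -0.38 in low glucose. Its means, -0.594 ± 0.319 and -0.498 ± 0.0860 (SD, n = 4), differed by -0.10, less than the spread between libraries (2-sided exact permutation p = 0.600, adjusted p = 0.600 over the 3 ratios).

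SMG1, the kinase of UPF1, had the smallest difference of the 7. It had 180, 185, 192 and 199 CPM in high glucose and 177, 161, 181 and 182 CPM in low glucose. High-glucose replicate 1 lies below low-glucose replicates 3 and 4, so the groups overlap. The means were 189 ± 8.46 and 175 ± 9.48 CPM (SD, n = 4), with a log2 fold change of 0.11 ± 0.0462 (SE, adjusted p = 0.0427 from limma, against p = 0.0857 in a 2-sided exact permutation test). The call was lost without a filter on low values (adjusted p = 0.0564), without a variance trend (0.123), and when high-glucose replicate 3 or 4 (0.0946 and 0.113) or low-glucose replicate 1 or 2 (0.0616 and 0.146) was left out. Without low-glucose replicate 2 the log2 fold change was 0.0714.

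The value of SMG1 may also depend on how reads were divided among its copies on chromosome 16, which was not tested. Of the 75-base windows of its longest coding transcript, 14.7% occur in other genes, led by the pseudogene SMG1P2 with 8.33%, and its estimated counts were fractional in all 8 libraries. UPF1, UPF2, UPF3B and SMG5 shared no such window and had whole estimated counts in all 8 libraries. The 7 pseudogene rows SMG1P1 to SMG1P7, examined after their values were seen, summed to 62.0, 54.3, 62.4 and 62.3 CPM in high glucose and to 129, 135, 152 and 146 CPM in low glucose. Every high-glucose sum lies below every low-glucose sum, at 60.2 ± 3.99 and 140 ± 10.6 CPM (SD, n = 4, exact permutation p = 0.0286, the smallest possible). Rows picked after seeing their values make this p a description, and 66.7% of all genes tested also had groups that did not overlap.

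SMG1 and its pseudogene rows together came to 242, 240, 255 and 262 CPM in high glucose, against 305, 296, 333 and 327 CPM in low glucose. The log2 fold change of this sum was -0.34 ± 0.0442 (SE, adjusted p = 4.81e-06 from limma), opposite in sign to SMG1 alone. The rows were added after their values were seen, so the sign carries their fall and does not test SMG1 itself. The pseudogene rows held 24.2% ± 1.26 of the sum in high glucose and 44.5% ± 1.68 in low glucose (SD, n = 4). SMG1P3 moved most, at 15.2 ± 5.80 CPM in high and 62.6 ± 4.49 CPM in low glucose (log2 fold change -2.03), and SMG1P2 (-1.30), SMG1P4 (-1.18) and SMG1P5 (-0.87, and -0.56 without high-glucose replicate 2) fell too. SMG1P1 had 15.99 ± 7.36 CPM in high and 18.0 ± 5.85 CPM in low glucose (adjusted p = 0.484). SMG1P7 had 3.72 ± 0.663 CPM in high and 2.74 ± 0.914 CPM in low glucose (adjusted p = 0.0773), and SMG1P6 was under the filter. The readthrough gene BOLA2-SMG1P6 fell as well, at 14.7 ± 0.666 CPM in high and 35.2 ± 1.35 CPM in low glucose (log2 fold change -1.21). The counting program is not given in the sources used here, and whether reads of SMG1 were placed in the pseudogene rows, or the reverse, was not tested.

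**Figure D2:**
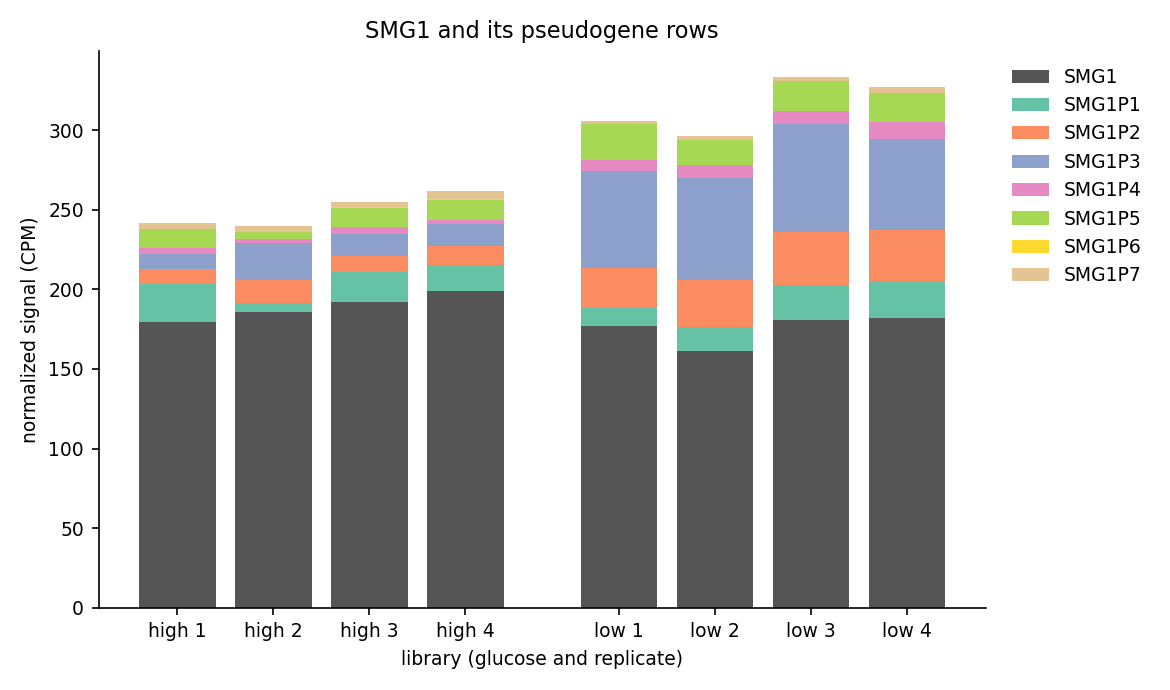
Stacked bars of the normalized signal (CPM, axis from 0) of SMG1 and of its 7 pseudogene rows in each library, high glucose left of low glucose. SMG1 itself reaches 180 to 199 CPM in high and 161 to 182 CPM in low glucose, while the pseudogene rows on top of it add 54.3 to 62.4 CPM in high and 129 to 152 CPM in low glucose.

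SMG5 and SMG6 act downstream of phosphorylated UPF1, and both were higher in high glucose. SMG5 had 127, 127, 112 and 111 CPM in high glucose and 85.1, 87.3, 84.1 and 81.0 CPM in low glucose. The high-glucose libraries fall into a higher pair (replicates 1 and 2) and a lower pair (replicates 3 and 4), both above every low-glucose library. The means were 119 ± 8.71 and 84.4 ± 2.60 CPM (SD, n = 4), and SMG5 rose by 0.49 ± 0.0519 (SE, adjusted p = 4.12e-07), the smallest p of the 7.

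SMG6 had 58.9, 55.7, 55.8 and 51.6 CPM in high glucose and 49.6, 44.1, 48.5 and 44.2 CPM in low glucose. The lowest high-glucose library, replicate 4, is close above the highest low-glucose library. The means were 55.5 ± 2.99 and 46.6 ± 2.88 CPM (SD, n = 4), and SMG6 rose by 0.25 ± 0.0591 (SE, adjusted p = 0.00153). On the opposite strand, transcripts of HIC1 cover 28.9% of the windows of the SMG6 transcript, and estimated counts of both genes were fractional in all 8 libraries. HIC1 had 9.94 ± 1.03 CPM in high and 7.61 ± 1.28 CPM in low glucose (log2 fold change 0.35, adjusted p = 0.0200), with overlapping groups. Its call was lost without high-glucose replicate 2 (adjusted p = 0.0618) or low-glucose replicate 1 (0.0690). Whether counting used strand is not given in any source, so reads of the pair cannot be told apart.

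The within-library log2 ratio of SMG5 over SMG6 was 1.10, 1.17, 0.995 and 1.10 in high glucose and 0.766, 0.969, 0.781 and 0.859 in low glucose. It was higher in all 4 high-glucose libraries by 0.25, and the nearest pair of libraries lies close together (2-sided exact permutation p = 0.0286, adjusted p = 0.0429 over the 3 ratios).

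**Figure D3:**
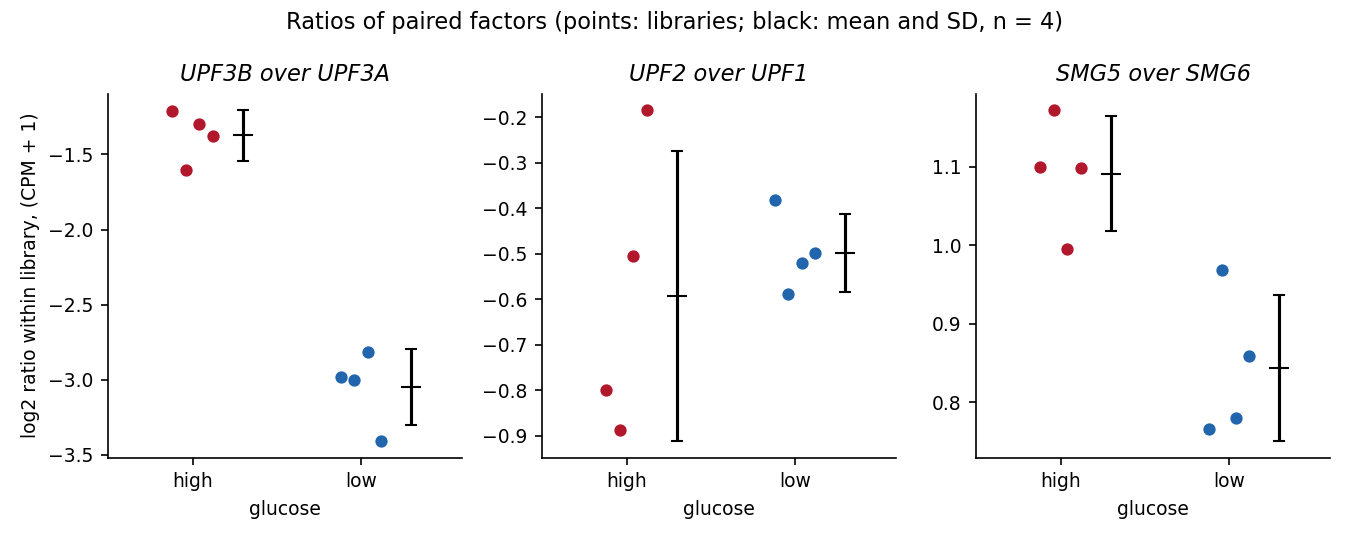
Within-library log2 ratios, from CPM + 1, of UPF3B over UPF3A, UPF2 over UPF1 and SMG5 over SMG6, with 1 point per library, high glucose (red) left of low glucose (blue), and black bars for the mean and SD of 4 libraries. The groups are apart for UPF3B over UPF3A and for SMG5 over SMG6, and overlap for UPF2 over UPF1, and the vertical axes differ between panels.

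The directions of the 7 factors held under 3 other scalings of the libraries. Rescaling each library to the same total moved the median log2 fold change of all genes by 0.20 and gave 7325 higher and 4348 lower calls, against 5553 higher and 5797 lower with the deposited scaling. Under that scaling UPF3A was at -0.19 (adjusted p = 0.00753), UPF3B at 1.46, UPF1 at 0.70, UPF2 at 0.61, SMG5 at 0.74, SMG6 at 0.49 and SMG1 at 0.35. Relative to the median gene under it, UPF3A was at -0.39, UPF3B at 1.26 and SMG1 at 0.16. Median-of-ratios and quantile scaling placed UPF3A at -0.39 and -0.33 and UPF3B at 1.28 and 1.22.

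**Figure D4:**
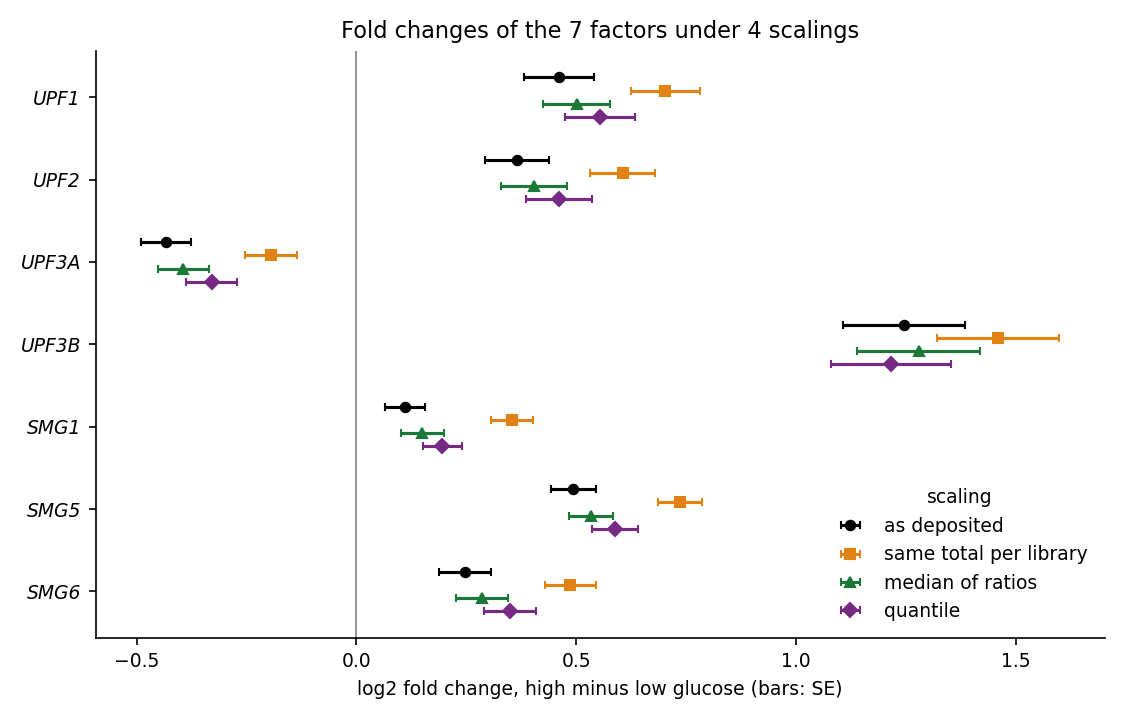
Log2 fold changes (horizontal axis, high minus low glucose, bars are SE) of the 7 factors under the deposited scaling and 3 others. No gene crosses 0: UPF3A spans -0.43 to -0.19, UPF3B 1.22 to 1.46 and SMG1 0.11 to 0.35.

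By the RefSeq annotation of GRCh38.p14, all 7 are protein-coding genes and the values are for whole genes. UPF1 (ENSG00000005007.12) lies at chr19:18831959-18868230, UPF2 (ENSG00000151461.20) at chr10:11920022-12043170, UPF3A (ENSG00000169062.15) at chr13:114281601-114305817 and UPF3B (ENSG00000125351.11) at chrX:119805311-119852963. SMG1 (ENSG00000157106.16) lies at chr16:18804860-18926408, SMG5 (ENSG00000198952.8) at chr1:156249224-156291516 and SMG6 (ENSG00000070366.14) at chr17:2059839-2303785. The 7 genes are on 7 chromosomes.

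Partners of the 7 factors and substrates of the pathway moved both ways. Over 91 genes of 9 lists, 33 were called higher and 45 lower and 13 were not called, against 35.7% higher and 37.2% lower over all genes. The median log2 fold change of the 91 was -0.15. The groups did not overlap for 74 of them, beside 66.7% of all genes. The 91 include 20 substrate genes, of which 6 were called higher and 14 lower, with a median of -0.59. None of these lists was tested as a set, and the counts of each list below are to be read beside these shares of all genes.

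Of 6 accessory decay factors, 1 rose, 3 were called lower and 2 were not called. PNRC2, which links UPF1 to the decapping enzyme, had 143, 138, 153 and 150 CPM in high glucose and 43.2, 49.6, 51.6 and 48.8 CPM in low glucose. No high-glucose library comes near the low-glucose range. The means were 146 ± 6.53 and 48.3 ± 3.61 CPM (SD, n = 4), and PNRC2 rose by 1.58 ± 0.0561 (SE) on the log2 scale (adjusted p = 1.37e-12). NBAS (-0.94) and DHX34 (-0.84), further factors of the pathway in human cells, fell. SMG9, which binds SMG1 together with SMG8, was called lower by only the deposited of 4 scalings (-0.23, adjusted p = 0.0266, and 0.01 with the same total), while SMG8 (0.02) and the helicase MOV10 (0.04) were not called. With the same total in each library, 3 of the 6 were called higher and 2 lower, and the list's median was 0.13, against -0.10 with the deposited scaling.

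Of 9 genes of the exon junction complex and its partners, 1 rose and 5 fell. RBM8A, a core subunit also known as Y14, rose to 97.4 ± 3.73 CPM in high glucose, against 60.6 ± 4.73 CPM in low glucose (0.68). The core subunit CASC3 fell to 87.0 ± 2.07 CPM, against 150 ± 4.82 CPM in low glucose (-0.78), and the peripheral factors RNPS1 (-0.67), ACIN1 (-0.59) and SAP18 (-0.38) and the paralog MAGOHB (-0.75) fell with it. EIF4A3 (0.03), MAGOH (0.14) and PYM1 (-0.04) were not called, and EIF4A3 and MAGOH became higher calls with the same total and with quantile scaling.

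Of 6 genes of translation termination and of the mRNA ends, 5 rose and PABPC1, the poly(A)-binding protein, was not called (0.09, adjusted p = 0.0525). ETF1, the release factor that reads the stop codon, had 340 ± 8.15 CPM in high and 228 ± 7.98 CPM in low glucose (0.58). Its partner GSPT1 (0.22), the paralog GSPT2 (0.82) and the cap-binding subunits NCBP1 (0.53) and NCBP2 (0.31) rose too. Under each of the 3 other scalings all 6 were called higher.

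SMG1 belongs to a family of large kinases that are built by shared chaperones. Of the other 5 kinases tested, ATM (0.71), ATR (0.67) and PRKDC (0.35), which respond to DNA damage, and TRRAP (0.26), a member without kinase activity, rose. MTOR, the growth kinase, was lower (-0.15), a call that ended with the same total (0.09) and with quantile scaling (-0.05). Of 7 assembly factors, TTI1 (0.33) and RUVBL1 (0.39) rose and 5 fell, among them TELO2 (-0.97), the ATPase RUVBL2 (-0.83) and PIH1D1 (-0.55). RPAP3, also among them (-0.28), was not called with the same total (-0.04) or with quantile scaling (-0.17). RUVBL1 and RUVBL2, which form mixed rings, had 90.9 ± 6.22 and 56.4 ± 7.14 CPM in high glucose, against 69.2 ± 5.02 and 101 ± 6.74 CPM in low glucose.

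Enzymes that finish the decay moved both ways, beside 35.7% of all genes tested called higher and 37.2% called lower. Of 11 genes of decapping and 5′-to-3′ decay, 5 rose and 4 fell, with DDX6 (0.73), DCP1A (0.45) and the exonuclease XRN1 (0.36) higher and DCPS (-1.16) and PATL1 (-0.81) lower. Of 13 deadenylation genes, 7 rose and 3 fell, with the catalytic subunits CNOT6 (0.86) and CNOT8 (0.46) and the adaptor PAN3 (0.47) higher and CNOT10 (-0.85) lower. Of 14 genes of the exosome, which degrades RNA from the 3′ end, and its SKI partner, 10 fell and 2, DIS3 (0.27) and WDR61 (0.27), rose. EXOSC5 was at 7.20 ± 1.71 CPM in high and 26.8 ± 4.01 CPM in low glucose (-1.77), and EXOSC1 (-1.01), EXOSC10 (-0.80) and SKIV2L (-0.62) fell as well. With the same total, the decapping list had 6 higher and 2 lower calls and a median of 0.14 in place of -0.11, the deadenylation list 8 and 1, and the exosome list 4 and 8.

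A last list held 20 genes with transcripts known as substrates of the pathway in human cells, of which 6 were called higher and 14 lower. Of all genes tested, 35.7% were called higher and 37.2% lower. The growth arrest gene GADD45A fell to 97.6 ± 3.67 CPM in high glucose, against 363 ± 6.28 CPM in low glucose (-1.89). The noncoding snoRNA hosts GAS5 (-2.17), SNHG15 (-2.64) and ZFAS1 (-1.51) and the stress transcription factor gene ATF3 (-2.21) fell as well. ATF4, the transcription factor of the integrated stress response, which drives genes of this list such as ATF3, was at 535 ± 4.30 CPM in high and 870 ± 10.6 CPM in low glucose (-0.70), and its part in the list was not tested. GADD45B (1.30) and the splicing regulators SRSF2 (1.26), SRSF6 (0.84), TRA2A (0.64), TRA2B (0.49) and RBM39 (0.17) rose. SRSF3 (-0.51), another splicing regulator, fell under all 4 scalings, and HNRNPDL was called lower (-0.23) but not with the same total (0.02) or with quantile scaling (-0.14). SRSF7 was lower by the deposited scaling (-0.11) and higher with the same total (0.13, adjusted p = 0.0232), when the list had 7 higher and 12 lower calls. Values for whole genes do not separate the substrate transcript from the other transcripts of a gene.

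**Figure D5:**
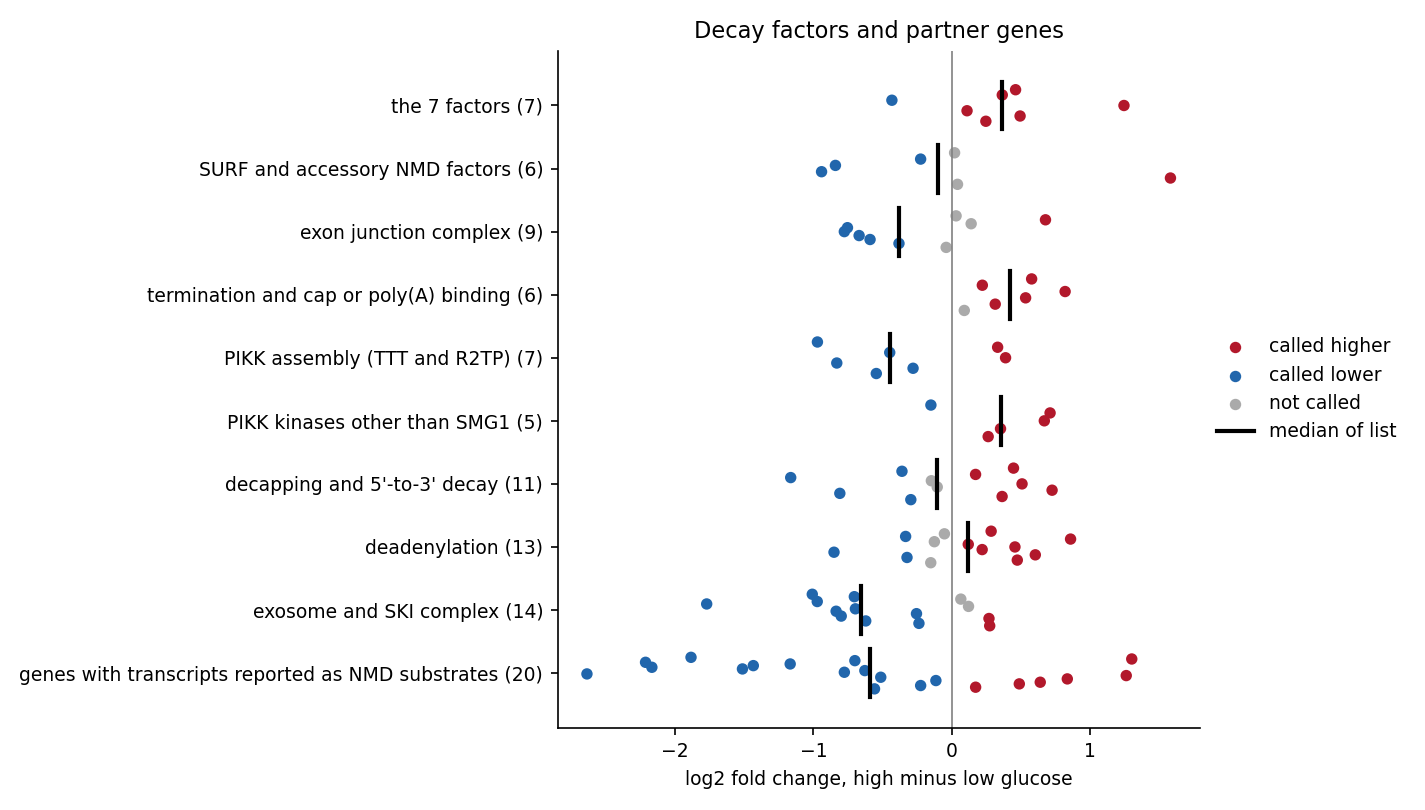
Log2 fold changes (horizontal axis, high minus low glucose) of the 7 factors and of 91 partner and substrate genes, with 1 point per gene, red for genes called higher, blue for genes called lower, gray for genes not called, and a black line for the median of each list. The medians are 0.37 for the 7 factors, 0.42 for termination and cap or poly(A) binding, -0.66 for the exosome and SKI complex and -0.59 for the substrate genes.

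Over the 8 libraries and 10918 genes with at least 5 CPM on average, the gene most like each factor in log2 level was found by Pearson's r, as a description in which all libraries belong to the same 2 groups. The r was 0.996 for UPF3B with FAM120B, 0.994 for UPF3A with OARD1 and 0.998 for SMG5 with THY1. It was 0.985 for UPF1 with POLR2L, 0.978 for UPF2 with MASTL, 0.987 for SMG1 with MGA and 0.978 for SMG6 with NSD2. An r above 0.95 was reached by 1878 genes for UPF3A, 942 for UPF3B and 940 for SMG5, but by 49 for UPF1, 17 for UPF2, 14 for SMG6 and 9 for SMG1.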

How the data were processed

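RNA was sequenced from 8 Hs578T cultures, and groups were taken from the sample titles. The authors deposited 1 table of normalized signal. Processing notes of the submitters list the hg38 build and edgeR. The study's methods give CPM with TMM factors for other cell lines, and the deposited signal was read in that unit. The columns sum to 1017015 to 1036274 in high and 1205567 to 1229021 in low glucose. Those methods name Tophat and the older build hg19 for other samples of the study. Whether that alignment, or the unit, holds for these hg38 libraries is not stated, and the counter: not given in the sources used here. Of values under 50 counts, 71.2% to 73.8% were whole multiples of 1 count within 0.005, so the counts were estimates with fractions. No count model was fitted, because the deposited values are normalized signal.

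The filter kept genes that reached 0.5 CPM in 2 or more libraries. They were tested as log2(CPM + 1) by limma (version 3.58.1, under R 4.3.3) with a variance trend and no covariate, and called at a Benjamini-Hochberg adjusted p under 0.05. The fit was run on simulated whole counts with few changed genes, unlike these data, so that run does not measure false calls here. Single values were compared by 2-sided exact permutation over 70 arrangements (scipy). Libraries of a group were not duplicates, with a mean chi-square per gene of 1.61 to 5.40 within groups and 95.4 to 119 between groups. In high glucose it was 1.61 for replicates 1 and 2 and 2.12 for replicates 3 and 4, against 3.08 to 5.40 across these pairs. High-glucose replicates 1 and 2 lay above replicates 3 and 4 for UPF1 and SMG5 and below them for UPF2 and SMG1. For UPF3A, UPF3B and SMG6 the pairs overlapped. The labels name no batch, and the part of this split in the results was not tested. Shared windows were counted in GENCODE transcripts, and positions and upstream sequences are from RefSeq, matched for all 7 factors. Named genes were the 7 factors, up to 4 called genes of each list by smallest p, the most similar gene, copies and overlapping genes. Others in the text were chosen after their values were seen, as were the pseudogene sums. The factors and lists were chosen with earlier results of these data known. Alternatives covered pseudocount, filter, scaling, variance trend, a replicate block and each library left out. Protein sequences were not used here, and 1 accessory gene is not reported here.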

Additional observations from a re-analysis of the deposited data

Results flagged for a closer look

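Among 36 sets of 4 libraries checked, 3 held a library apart from the others by Dixon's test at the 95% level, where chance gives about 1 in 20. The UPF3B value of 11.1 CPM in high-glucose replicate 2 was low for its group (gap over range 0.854), and it is above all 4 low-glucose values. In the same library SMG1P5 was low at 4.63 CPM (0.894). BOLA2-SMG1P6 was high at 15.6 CPM in high-glucose replicate 1 (0.907). Left out in turn, none of these libraries changed the call of UPF3B, SMG1P5 or BOLA2-SMG1P6.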

How the results depend on the processing

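UPF1, UPF2, UPF3A, UPF3B, SMG5 and SMG6 kept direction and call under all 17 alternatives. Their log2 fold changes ran from 0.40 to 0.70 for UPF1, 0.30 to 0.61 for UPF2, -0.46 to -0.19 for UPF3A, 0.85 to 1.46 for UPF3B, 0.46 to 0.74 for SMG5 and 0.22 to 0.49 for SMG6. In exact permutation tests these 6 reached 0.0286, the smallest p possible. SMG1 kept 0.11 but lost its call without the filter (adjusted p = 0.0564), without a variance trend (0.123) and in the exact test (p = 0.0857). Leaving out each library gave SMG1 0.0714 to 0.135, with adjusted p of 0.0224 to 0.146, and 5 or 6 factors called higher. The sum of SMG1 and its pseudogene rows, an alternative chosen after seeing the data, was at -0.34 and does not test SMG1 itself. SMG1P1 (-0.24, not called) was at 0.14 without high-glucose replicate 2, and SMG1P7 passed with the same total (0.54), with the block (0.35) and without low-glucose replicate 4 (0.51). SMG9 (-0.23, called) was at 0.0111 with the same total, and lost its call under 2 other scalings and without a variance trend (adjusted p = 0.0516 to 0.185). Without high-glucose replicate 2 or 4 or low-glucose replicate 2 its adjusted p was 0.0523, 0.0858 and 0.0943. Causes were not tested.

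Genes called over the whole table ranged from 3919 to 7325 higher and from 4348 to 5892 lower. The 3919 came with a filter on a mean of at least 5 CPM, which left only 10919 genes to test. The 7325 and the 4348 came with the same total in each library. Same-numbered libraries deviated together with r of -0.03 to 0.11, and libraries of other numbers with r of -0.15 to 0.08. These ranges overlap and the labels name no pairs, so the numbers were not taken as pairs. A fit with the replicate number as a block called 5602 genes higher and 5892 lower and changed no call among the 7 factors. With 4 libraries a group, the exact test cannot go below 0.0286 and, with 1 library left out, cannot pass 0.05 after adjustment over the 3 ratios, so ratios without a library are values only: 1.56 to 1.76 for UPF3B over UPF3A, 0.22 to 0.29 for SMG5 over SMG6 and -0.23 to 0.00 for UPF2 over UPF1. UPF3B in low glucose rests on 29 to 56 counts per library, the fewest among the 7 factors, which limits its precision.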
